A study of Mus musculus with 9 samples.

Results

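The hnRNP and SR splicing factor genes were taken as every probe set whose annotation gave a single gene symbol beginning with Hnrnp or Srsf. The rule found 91 of the 45101 probe sets on the array, for 29 genes, 19 with hnRNP symbols (58 probe sets) and 10 with SR symbols (33 probe sets). Of these, 86 probe sets were bright enough to be tested. The 5 left out among the dimmest were Hnrnpc 1458139_at, Hnrnpd 1458273_at, Hnrnpl 1445594_at, Srsf1 1457136_at and Srsf12 1437168_at, the last being the only probe set of its gene. A further 7 probe sets that listed an hnRNP or SR symbol together with other genes were not used.

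hnRNP proteins coat newly made transcripts and often repress the use of nearby splice sites, whereas SR proteins bind exonic enhancer sequences through RNA recognition motifs and recruit the splicing machinery through a domain rich in arginine and serine. Both families shape alternative splicing in every tissue. Many of their own genes carry highly conserved exons or retained introns that make some of their transcripts targets of nonsense-mediated decay, so that probe sets lying on different parts of such a gene can report different transcripts.

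The study measured total RNA from homogenates of whole lung of 3 inbred mouse strains on 9 one-colour arrays. The hypoxic mice had spent 4 weeks in hypobaric hypoxia at 50 kPa and gave 2 arrays for each strain, C57/BL6 (BL6 here), FVB/N and SV129. The normoxic mice were also held at a set pressure, 85 kPa for 4 weeks, and gave 1 array for each strain. The labels do not say which arrays came from separate animals, so the p-values measure the spread between these arrays, which may be partly technical, and 12 further arrays that the submitters mention were not analysed here. A homogenate averages over all cells of the lung, so fewer cells of a type and less RNA per cell cannot be told apart.

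Some arrays stood apart from the rest. Lung markers averaged between 13.36 and 13.95 on the log2 scale on every array, but 19 kidney marker genes averaged 11.45 on array 2 of hypoxic BL6 and 12.37 in normoxic FVB/N lung, with 5.78 to 6.23 on the other 7 arrays. Brown fat and fast muscle markers averaged 9.30 on the normoxic FVB/N array and 5.84 to 6.33 elsewhere. The 18S rRNA 5′ control read 74 to 246 signal units on hypoxic arrays and 1682 to 12239 on normoxic arrays, without overlap (two-sided exact permutation test, p = 0.0119, adjusted p = 0.0179 over 6 control measures, the smallest that 84 splits allow). The log2 ratio of the spike-in controls bioC and bioD was −1.75 ± 0.118 on hypoxic arrays and −4.46 ± 0.138 on normoxic arrays (SD, n = 6 and 3, exact permutation p = 0.0119, adjusted p = 0.0179). The 3′ to 5′ log2 ratio of Gapdh, a measure of RNA integrity, was −0.04 ± 0.195 on hypoxic and −0.20 ± 0.114 on normoxic arrays (exact permutation p = 0.226, adjusted p = 0.271). That of Actb was 0.39 ± 0.177 on hypoxic and 0.35 ± 0.0884 on normoxic arrays (exact permutation p = 0.726). Pressure and the 18S and spike-in controls moved together, and their parts in the changes of the splicing factor genes cannot be told apart.

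Hypoxic and normoxic lungs were compared over the 3 strains together. With hypoxia, 13 of the 86 tested probe sets changed, 3 upwards and 10 downwards, at an adjusted p below 0.05 (limma with Benjamini-Hochberg adjustment over all 27022 probe sets tested). They belonged to 10 genes. The share called was 15.1%, beside 3.76% of all probe sets tested. Of all probe sets, 1.94% rose and 1.82% fell, so that the excess lay on the falling side. Falls ranged from 1.40-fold to 2.41-fold and rises from 1.38-fold to 1.49-fold. Among the 13 the hypoxic and normoxic arrays did not overlap, which is no separate support, since they were chosen by this same comparison.

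The 10 falls were led by probe sets of Hnrnpr, Hnrnpa2b1 and Hnrnpa1, and the 3 rises belonged to Hnrnpdl, Hnrnpf and Hnrnpc. In Hnrnpdl and Hnrnpf another probe set of the same gene fell. The median change of all 86 was −0.14 (56 below 0), beside 0.04 for all probe sets tested (46.2% below 0). When each array was centred on its median instead of quantile normalized, the whole table's median was 0.11, the splicing factor median −0.04 with 47 below 0, and 3 probe sets rose and 5 fell. Those 8 were 9.3% of the members, beside 5.33% of all probe sets under that scaling, a narrower contrast than with quantile normalization.

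**Figure D1:**
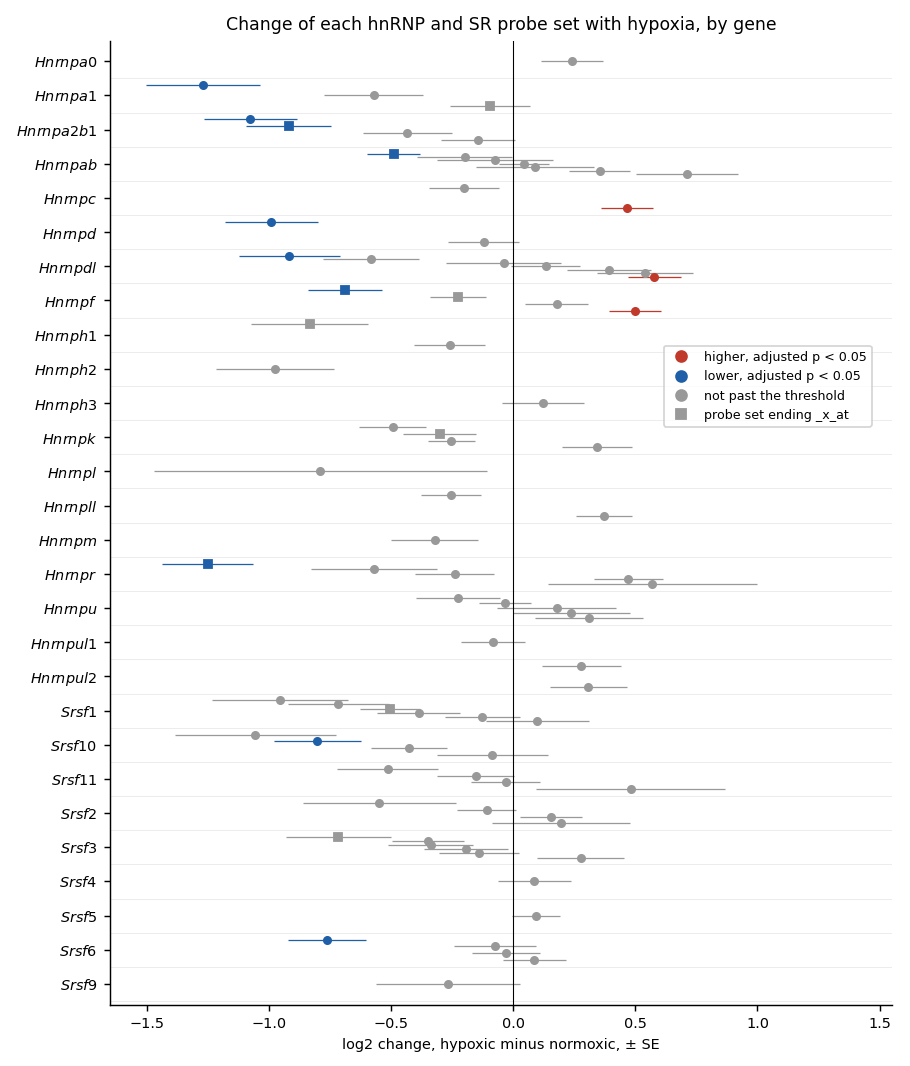
Log2 change, hypoxic minus normoxic, of each of the 86 tested probe sets (x axis, with SE), grouped by gene (y axis). Red and blue points passed the adjusted p threshold upwards and downwards, grey ones did not, and squares mark probe sets ending in _x_at, all 10 of which lie left of 0.

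Among hnRNP genes 3 probe sets rose and 8 fell of 55 tested (median −0.12), and among SR genes none rose and 2 fell of 31 (median −0.15). Without overlap between the groups, 14 of the 86 (16.3%) were lower on every hypoxic array, beside 4.12% of all probe sets, and 6 (6.98%) were higher on every hypoxic array, beside 6.53%. The count of 13 depended on single arrays, and over the 9 fits that left out 1 array it ran from 0 to 18. It was 0 without the hypoxic BL6 array 5, the normoxic BL6 array or the normoxic SV129 array, where 0.118%, 0.0407% and 0.0111% of all probe sets passed. It was 3 (3.49%) without the hypoxic BL6 array 2, beside 1.48% of all, and 4 (4.65%) without the hypoxic SV129 array 5, beside 2.14%. It was 2 (2.33%) without the hypoxic FVB/N array 2 or array 6, beside 1.19% and 1.11%. The calls over the whole table thus became fewer in the same fits, which do not include the one that gave 18. Without both arrays bearing kidney markers the count was 6, all falls, beside 0.844% of all probe sets. Of the 13, only Hnrnpr 1437526_x_at, Hnrnpa2b1 1433829_a_at and 1434047_x_at, and Srsf6 1447898_s_at were among these 6. The rest of the 6 were members not called with all arrays. With each of the 9 arrays left out in turn, Hnrnpr 1437526_x_at passed 6 times, Hnrnpa2b1 1433829_a_at 5 times and Hnrnpa1 1455740_at 4 times, and the others 1 to 3 times.

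The hnRNP A/B proteins are the classic antagonists of SR proteins at splice sites. Hnrnpa1 1455740_at ranged from 6.10 to 7.19 on the hypoxic arrays (median 6.57) and read 7.68, 7.77 and 8.13 on the normoxic BL6, FVB/N and SV129 arrays. Every hypoxic array lay below every normoxic one, and the fall was −1.27 ± 0.233 (log2, SE), or 2.41-fold (limma adjusted p = 0.0264). This probe set was dim. Its deposited signals were 47.33 to 119.7 on hypoxic arrays, whose median signals over all probe sets were 92.3 to 104.6. The other tested probe sets of this gene changed by −0.09 (1455305_x_at, adjusted p = 0.767) and −0.57 (1436549_a_at, adjusted p = 0.142), neither past the threshold.

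Hnrnpa2b1 encodes the A2 and B1 proteins, which also sort RNAs into exosomes and along neuronal processes. Its probe set 1433829_a_at ranged from 10.99 to 11.57 in hypoxia (median 11.13), against 12.49, 11.82 and 12.57 in normoxia. Probe set 1434047_x_at ranged from 10.68 to 11.19 in hypoxia (median 10.88), against 11.99, 11.23 and 12.24. In both, the normoxic FVB/N array lay nearest to the hypoxic arrays. The falls were −1.08 ± 0.189 (2.11-fold, adjusted p = 0.0232) and −0.92 ± 0.174 (1.89-fold, adjusted p = 0.0289). The other 2 probe sets gave −0.15 (1420365_a_at, adjusted p = 0.612) and −0.43 (1433830_at, adjusted p = 0.203).

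Hnrnpab, a related RNA and DNA binding protein, had 7 tested probe sets. 1455855_x_at ranged from 12.43 to 12.90 in hypoxia (median 12.58), against 13.23, 12.95 and 13.22 in normoxia, a narrow separation in which the highest hypoxic array was an SV129 one. It fell by 0.49 ± 0.109 on the log2 scale (1.40-fold, adjusted p = 0.0457). Its other 6 probe sets gave changes of −0.20 to 0.71, the highest in 1431349_at (adjusted p = 0.091), and none passed the threshold.

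AUF1, the product of Hnrnpd, binds AU-rich elements and controls the decay of many mRNAs. Hnrnpd 1457568_at ranged from 7.81 to 8.49 in hypoxia (median 7.93), against 9.02, 8.65 and 9.32 in normoxia. The groups were apart on all arrays, and the fall was −0.99 ± 0.191 (1.99-fold, adjusted p = 0.03). The other tested probe set, 1425142_a_at, gave −0.12 (adjusted p = 0.668).

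Hnrnpdl encodes a relative of AUF1 and is one of the genes whose transcripts include forms prone to nonsense-mediated decay. 1424251_a_at ranged from 13.30 to 13.64 in hypoxia (median 13.48), against 12.87, 12.84 and 12.97 in normoxia, and rose by 0.58 ± 0.107 (1.49-fold, adjusted p = 0.0274). 1428224_at ranged from 7.52 to 8.0 in hypoxia (median 7.73), against 9.01, 8.04 and 8.94 in normoxia, and fell by 0.92 ± 0.207 (1.89-fold, adjusted p = 0.0474). The first was higher on the hypoxic arrays in every strain, by least on the hypoxic SV129 array 2 (13.30, against 12.97). The 2 hypoxic SV129 arrays themselves lay 0.34 apart. In the second, the normoxic FVB/N array stood just above the highest hypoxic array. The remaining 5 probe sets of Hnrnpdl gave changes of −0.58 to 0.54 and did not pass. In the RefSeq annotation Hnrnpdl overlaps Enoph1, and Hnrnpf, Hnrnpab and Hnrnpd also overlap other genes. Which transcripts each probe set matches was not tested.

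HNRNPF binds runs of guanines near splice sites. Hnrnpf 1423382_a_at ranged from 11.86 to 12.27 in hypoxia (median 12.13), against 11.61, 11.67 and 11.49 in normoxia, and rose by 0.50 ± 0.107 (1.41-fold, adjusted p = 0.0417). Hnrnpf 1437099_x_at ranged from 10.69 to 11.29 in hypoxia (median 10.84), against 11.63, 11.46 and 11.66 in normoxia, and fell by 0.69 ± 0.152 (1.61-fold, adjusted p = 0.0448). Both separated all hypoxic from all normoxic arrays, in opposite directions. The other 2 probe sets of the gene gave −0.23 (1456664_x_at) and 0.18 (1450963_at).

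Hnrnpc encodes the C proteins, which package nascent transcripts and compete with U2AF at polyuridine tracts. 1460240_a_at ranged from 12.73 to 13.23 in hypoxia (median 13.13), against 12.61, 12.62 and 12.57 in normoxia. The rise was 0.46 ± 0.106 (1.38-fold, adjusted p = 0.0488), and the hypoxic SV129 array 2 was the one nearest to the normoxic arrays. Hnrnpc 1418693_at gave −0.20 (adjusted p = 0.441).

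Hnrnpr, a relative of Syncrip, gave the smallest adjusted p of all members. 1437526_x_at ranged from 9.37 to 10.46 in hypoxia (median 9.88), against 11.39, 10.54 and 11.49 in normoxia. The groups did not overlap, with only a small gap between the highest hypoxic array, from SV129, and the normoxic FVB/N array. The fall was −1.25 ± 0.188 (2.38-fold, adjusted p = 0.0166). Its other 4 probe sets gave −0.57, −0.24, 0.47 and 0.57, none past the threshold.

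Of the SR genes, Srsf6 and Srsf10 each had 1 probe set past the threshold. Srsf6 1447898_s_at read 9.83, 9.94, 9.96, 10.09, 10.13 and 10.03 in hypoxia, against 10.94, 10.34 and 10.99 in normoxia, and fell by 0.76 ± 0.159 (1.70-fold, adjusted p = 0.0387). The other 3 Srsf6 probe sets lay between −0.07 and 0.09. Srsf10, whose product represses splicing when it is dephosphorylated, as after heat shock, had 1449121_at at 8.62 to 9.31 in hypoxia (median 9.01), against 9.89, 9.55 and 9.96 in normoxia. That probe set fell by 0.80 ± 0.178 (1.74-fold, adjusted p = 0.0455). Its other 3 probe sets were also below 0, from −1.06 to −0.08, and did not pass.

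**Figure D2:**
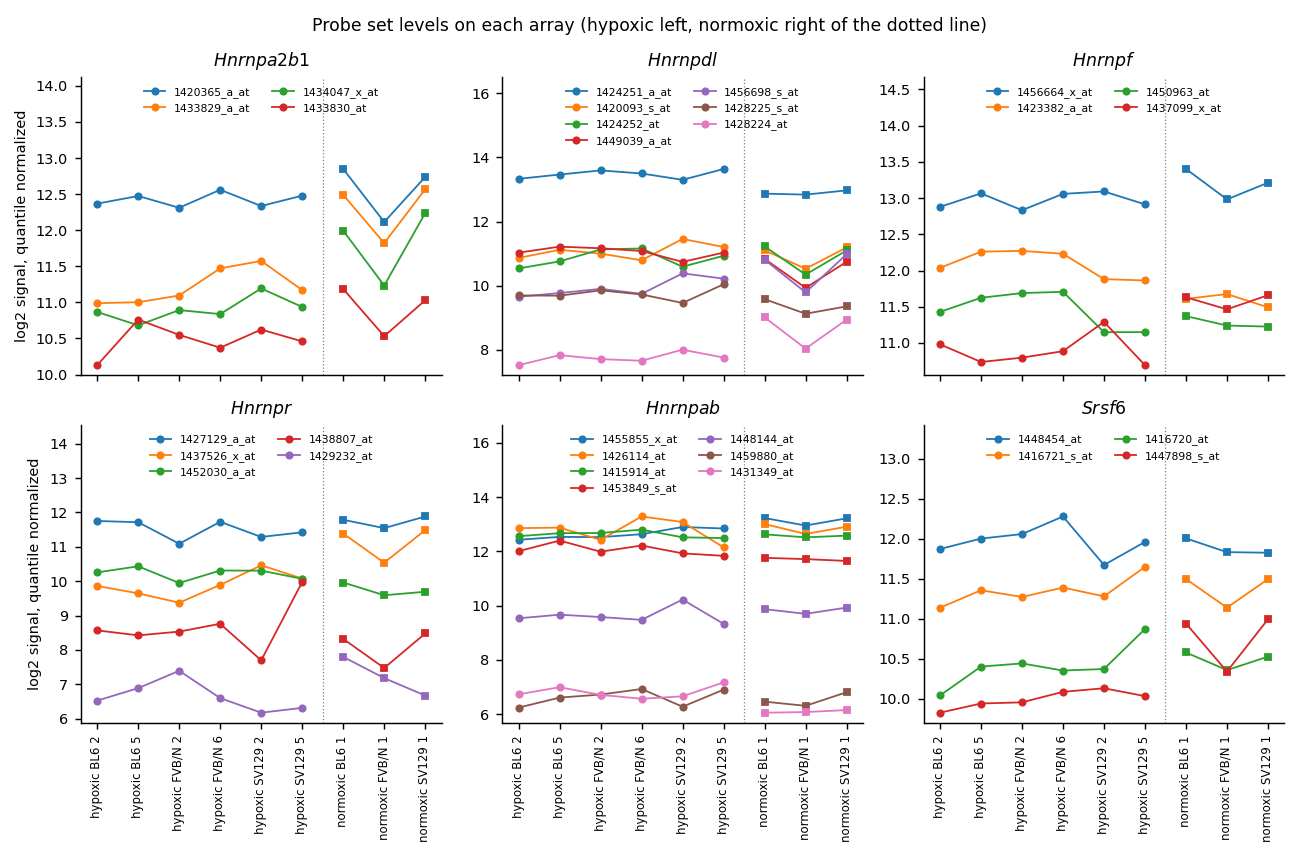
Log2 signal of every tested probe set of Hnrnpa2b1, Hnrnpdl, Hnrnpf, Hnrnpr, Hnrnpab and Srsf6 (1 line each) on the 9 arrays, circles for hypoxic arrays left of the dotted line and squares for normoxic arrays right of it. Hnrnpdl 1424251_a_at lies at 13.30 to 13.64 in hypoxia and 12.84 to 12.97 in normoxia, while 1428224_at of the same gene lies lower in hypoxia.

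The other genes gave no call with hypoxia. Srsf1, a founding member of the SR family, came close in 1434972_x_at, which ranged from 11.58 to 11.71 in hypoxia, against 12.36, 11.91 and 12.26 in normoxia, and gave −0.51 ± 0.122 (adjusted p = 0.0568). Its other 5 tested probe sets ran from −0.95 to 0.10. Hnrnph2, a partner of Hnrnpf in binding guanine runs, gave −0.97 (adjusted p = 0.0599) from a single probe set. Srsf3, a small SR protein that also promotes mRNA export, had changes of −0.72 to 0.28 over 6 probe sets. Srsf2 had −0.55 to 0.20 over 4, Hnrnpk, a poly(C) binding protein, −0.49 to 0.34 over 4, and Hnrnpu, a nuclear scaffold protein, −0.22 to 0.31 over 5.

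The smaller genes filled in the rest. Hnrnph1, of the same subfamily as Hnrnph2, gave −0.83 (1437267_x_at, adjusted p = 0.0882) and −0.26 (1415872_at). Hnrnpll, which directs Ptprc splicing in lymphocytes, gave 0.37 (1425255_s_at, adjusted p = 0.102), with every hypoxic array above every normoxic one, and −0.25 (1427144_at). Srsf11 gave −0.51 to 0.48 over 4 probe sets. Hnrnpul2 gave 0.28 and 0.31 from its 2 probe sets. The genes with a single tested probe set and no call, beside Hnrnph2 and Hnrnpl, were Hnrnpa0 (0.24), Hnrnph3 (0.12), Hnrnpm (−0.32), Hnrnpul1 (−0.08), Srsf4 (0.09), Srsf5 (0.09) and Srsf9 (−0.27), all with overlapping groups.

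Hnrnpl 1424101_at, from the gene of a protein that binds CA repeats, was the least reproducible member. It read 8.98 and 9.90 on the hypoxic BL6 arrays, 8.92 and 9.64 on the hypoxic FVB/N arrays and 11.41 and 7.64 on the hypoxic SV129 arrays, against 9.64, 10.17 and 10.81 in normoxia. The 2 hypoxic SV129 arrays lay 3.77 apart, a 13.6-fold gap that only 0.0407% of all tested probe sets reached. Its change of −0.79 ± 0.68 was within the spread (adjusted p = 0.534).

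Whether the probe sets of one gene moved together was the next question. Of 19 genes with 2 or more tested probe sets, 13 (68.4%) had changes of both signs, beside 52.3% of 6114 such genes in the table. Where a gene had 4 or more probe sets the shares were 84.6% (11 of 13 genes) and 79.3%, and with 2 probe sets 40% (2 of 5) and 39.2%. The 1 member gene with 3 probe sets, Hnrnpa1, had changes of 1 sign, beside 63.0% of such genes with both. A rise and a fall that both passed the threshold occurred in 2 of these genes, Hnrnpdl and Hnrnpf (10.5%), and in 17 of all such genes (0.278%). These shares are not matched for probe sets per gene: 13 of the 19 and 1077 of the 6114 genes had 4 or more. Genes with any probe set past the threshold numbered 10 and 705. Both Hnrnpf calls and the Hnrnpdl fall each passed in 1 of the 9 fits that left out an array.

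Each probe set was then set against the brightest probe set of its gene on the same array, so that anything scaling a whole array dropped out. Of 58 such pairs, 17 (29.3%) changed unequally with hypoxia, from 12 genes, beside 15.8% of 10490 pairs in the table (limma, adjusted over all pairs). A pair test shows unequal change and not that either probe set stayed the same. In 6 pairs the probe set rose relative to the brightest one and in 11 it fell, beside 7.88% in each direction. The changes of the 2 probe sets had opposite signs in 11 of the 17 (64.7%), beside 74.8% of all called pairs. Of the 17, 3 were Hnrnpab pairs that rest on a near tie: its brightest probe set 1455855_x_at and the second, 1426114_at, averaged 12.81 and 12.80, and with the second as partner no Hnrnpab pair passed and the count was 14 (24.1%), beside 15.7% of all pairs. Without both arrays bearing kidney markers, 3 pairs passed, beside 1.92% of all pairs. Without the normoxic BL6 array the count was 4, beside 2.75% of all pairs, and without the normoxic SV129 array it was 6, beside 5.22%.

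The widest separation was in Hnrnpdl, where 1428224_at minus 1424251_a_at changed by −1.50 ± 0.191 (adjusted p = 0.00168), from changes of −0.92 and 0.58. A second Hnrnpdl probe set, 1456698_s_at, changed by −1.16 ± 0.181 against the same partner (adjusted p = 0.00351), and here the differences of hypoxic and normoxic arrays overlapped. Both passed without the kidney-marked arrays too, at −1.66 (adjusted p = 0.0366) and −1.38 (adjusted p = 0.0378).

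In Hnrnpa2b1, 1433829_a_at and 1434047_x_at moved against 1420365_a_at by −0.93 ± 0.139 (adjusted p = 0.00319) and −0.77 ± 0.141 (adjusted p = 0.00662). In Hnrnpab, where the brightest probe set was the one that fell, 1453849_s_at and 1431349_at moved the other way, by 0.84 ± 0.134 (adjusted p = 0.00379) and 1.20 ± 0.196 (adjusted p = 0.00424). Against 1426114_at they moved by 0.43 (adjusted p = 0.182) and 0.78 (adjusted p = 0.128), so both calls depended on the partner. Probe set 1431349_at was also dim. Its deposited signals were 53.44 to 59.12 on normoxic arrays, whose median signals were 98.2 to 110.9, and 77.83 to 128.6 on hypoxic arrays. Hnrnpf 1423382_a_at moved by 0.72 ± 0.119 against 1456664_x_at (adjusted p = 0.0044). The sign of a pair depends on which probe set is the brightest, so no difference in direction between genes is read from these values.

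Srsf6 1447898_s_at was the only SR probe set among the 17, moving by −0.85 ± 0.142 against 1448454_at (adjusted p = 0.00481). Hnrnpd 1457568_at moved by −0.87 ± 0.159 against 1425142_a_at (adjusted p = 0.00669). Hnrnpr 1437526_x_at moved by −1.01 ± 0.196 against 1427129_a_at (adjusted p = 0.00835), with overlap between the groups. The other 7 called pairs came from Hnrnpa1, Hnrnpll, Hnrnpab, Hnrnpk, Hnrnpc, Hnrnpr and Hnrnph1, with differences between −1.17 and 0.71.

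**Figure D3:**
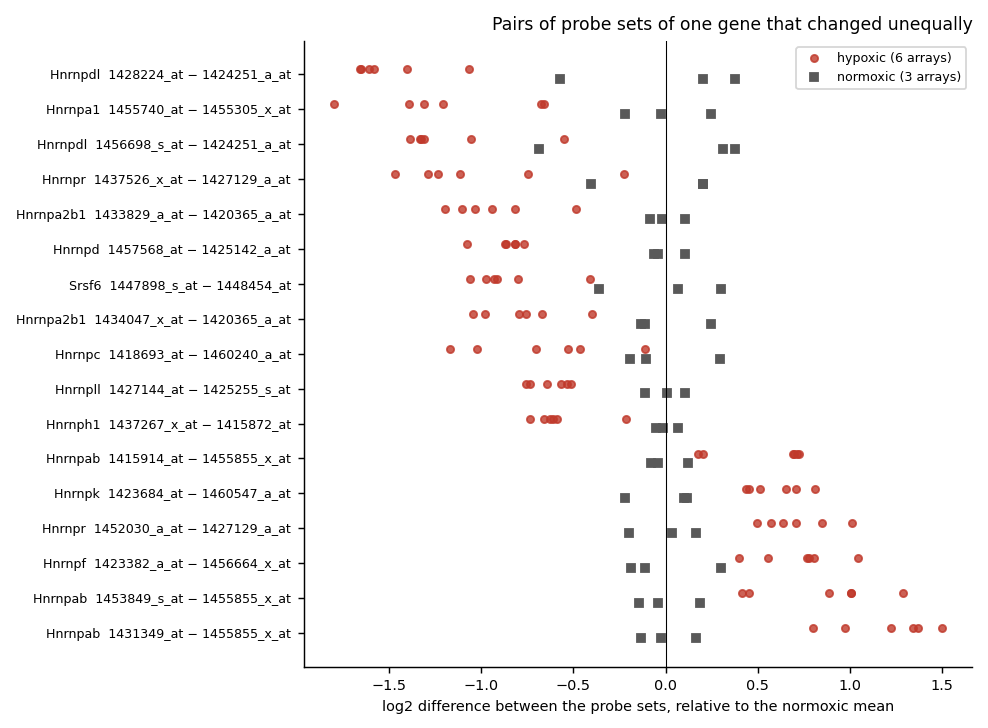
Log2 difference between a probe set and the brightest probe set of its gene, relative to its normoxic mean (x axis), for the 17 pairs that changed unequally (y axis), red circles for the 6 hypoxic and grey squares for the 3 normoxic arrays. The shift is −1.50 in the top pair, Hnrnpdl 1428224_at, and 1.20 in the bottom pair, Hnrnpab 1431349_at, and the groups overlap in 3 pairs. The Hnrnpab pairs pass with this partner and not with the second brightest, and Hnrnpab 1431349_at is a dim probe set.

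Pairs designed from the same source sequence moved more alike. Over all pairs within a gene, the median absolute difference in change was 0.33 for the 23 sharing a source and 0.51 for the 119 that did not, beside 0.31 and 0.36 in the whole table. These medians are a description. Opposite signs occurred in 6 of the 23 (38.7% in the whole table) and in 59 of the 119 (42.8%). There were exceptions. In Hnrnpdl, 1428224_at (−0.92) and 1428225_s_at (0.39) share a source and lay 1.31 apart, the most of all. Shared-source pairs of Srsf1, Srsf10, Hnrnpa1, Hnrnpc and Hnrnpa2b1, and another of Hnrnpdl, lay 0.62 to 0.83 apart.

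The ending of a probe set's name records how specific its probes are: _a_at probes match several transcripts of one gene, _s_at probes can match transcripts of several genes, and some _x_at probes can also match unrelated sequences. All 10 tested splicing factor probe sets ending in _x_at had changes below 0 (median −0.60), and 4 fell. In the whole table this class also leaned down, with a median of −0.15, 63.5% below 0, 8.91% called lower and 0.957% called higher. Of the 19 members ending in _a_at, 3 rose and 1 fell (2.78% and 2.43% of all such probe sets), of the 44 ending in _at none rose and 4 fell (1.84% and 1.02%), and of the 13 ending in _s_at none rose and 1 fell (2.33% and 2.84%). All 3 rises thus came from _a_at probe sets. Leaving out _x_at probe sets from the whole fit, 5 of the remaining members passed (6.58%, beside 2.42% of all probe sets), 1 rising and 4 falling. The pair count was then 10 of 48 (20.8%), beside 14.6% of all pairs.

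**Figure D4:**
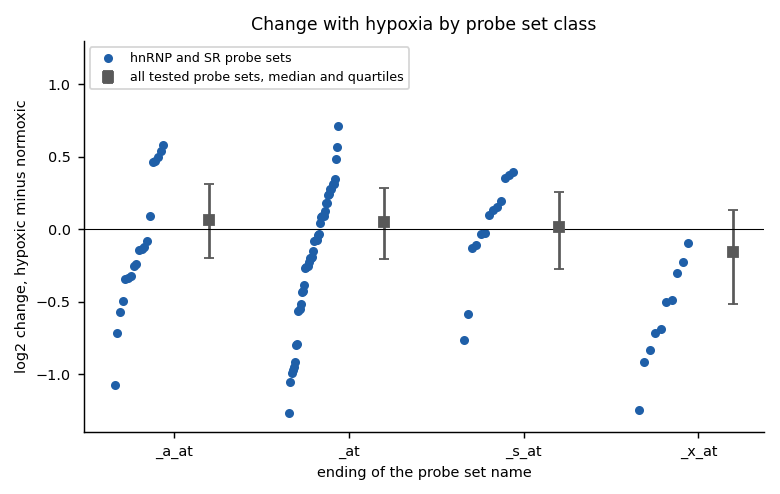
Log2 change, hypoxic minus normoxic (y axis), by the ending of the probe set name (x axis), with 1 blue point for each tested hnRNP or SR probe set and a grey square with bars for the median and quartiles of all tested probe sets of that ending. The 10 _x_at members all lie below 0, at a median of −0.60 beside −0.15 for the whole class.

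Taken strain by strain, the change rested on 2 hypoxic arrays and 1 normoxic array, with the spread pooled from the 3 hypoxic pairs. In BL6 no member passed (0.0148% of all probe sets did), with 29 members at an unadjusted p below 0.05 and a median change of −0.30, 63 of 86 being below 0. In SV129 no member passed (0% of all), with 23 at an unadjusted p below 0.05, a median of −0.29 and 65 below 0. In FVB/N the median was 0.08, with 33 below 0, and 2 members rose (6.8% of all probe sets were called, 2.95% upwards). The whole table's medians in BL6, FVB/N and SV129 were 0.02, 0.17 and 0.01. Of all probe sets, 48.3%, 39.4% and 49.0% were below 0 in these strains. At an unadjusted p below 0.05 (limma) the shares of all were 12.5%, 26.1% and 7.58%, and FVB/N had 17 members there. The smallest p in BL6 and in SV129 belonged to the same probe sets, Srsf1 1428099_a_at (−1.20 in BL6 and −0.96 in SV129) and Hnrnpa2b1 1433829_a_at (−1.49 and −1.20) and 1434047_x_at (−1.22 and −1.17).

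The FVB/N calls were Hnrnpdl 1449039_a_at and Hnrnpk 1423684_at. Hnrnpdl 1449039_a_at read 11.17 and 11.08 on the hypoxic FVB/N arrays, against 9.93 in normoxia, a change of 1.19 (adjusted p = 0.0311), with 0.29 in BL6 and 0.14 in SV129. Hnrnpk 1423684_at read 12.96 and 12.74, against 12.09, a change of 0.76 (adjusted p = 0.0441), with 0.01 in BL6 and 0.26 in SV129. In both, the normoxic FVB/N array was the lowest of all 9. Without the hypoxic SV129 array 2, or without array 5, the FVB/N count was 8 (9.3%), below the 14.2% and 14% of all probe sets in those fits. Without either hypoxic FVB/N array it was 0, as in the whole table, and without either hypoxic BL6 array it was 1, beside 5.12% and 5.68% of all. In BL6 the count was 2 (2.33%) without either hypoxic SV129 array, beside 0.481% and 0.596%.

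The 10 falls had changes from −1.63 to −0.75 in BL6, from −0.92 to −0.32 in FVB/N and from −1.56 to −0.35 in SV129. The difference of the change between strains itself was tested, and no member passed in any of the 3 contrasts (0% of all probe sets in each). At an unadjusted p below 0.05 there were 13 members for BL6 minus FVB/N, 0 for BL6 minus SV129 and 8 for FVB/N minus SV129. The shares of all probe sets at that level were 17.1%, 1.34% and 12.8%. The smallest limma adjusted p among members were 0.109, 0.9999 and 0.262. In 23 of 86 members (26.7%) the change was below 0 in BL6 and SV129 and above 0 in FVB/N, beside 16.5% of all probe sets. The normoxic FVB/N array, which carries the kidney, brown fat and muscle markers, was the lowest of the 3 normoxic arrays in 66 of 86 members (76.7%), beside 50.4% of all. Among the 10 falls it was so in 9. The part of that array's other tissue in these values was not tested.

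Strain differences, taken over both pressures, were few. Of the 86 members, 1 passed for BL6 minus FVB/N (2.07% of all probe sets), 4 for BL6 minus SV129 (2.51%) and 1 for FVB/N minus SV129 (2.89%). Srsf2, the SR protein also known as SC35, gave the largest. Srsf2 1452439_s_at read 8.89 and 9.06 in hypoxic BL6 and 8.98 in normoxic BL6 lungs. It read 10.74, 10.78 and 10.44 in FVB/N lungs and 10.65, 10.63 and 10.48 in SV129 lungs, each with the 2 hypoxic arrays first. All BL6 arrays lay far below the rest, which lay close together. Its level was 8.98 ± 0.0847 in BL6, 10.65 ± 0.183 in FVB/N and 10.59 ± 0.0909 in SV129 (SD, n = 3). It was 3.19-fold lower in BL6 than in FVB/N (−1.67 ± 0.147, adjusted p = 0.000522) and 3.05-fold lower than in SV129 (−1.61 ± 0.147, adjusted p = 0.000888), and both differences passed whichever single array was left out.

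Of the other Srsf2 probe sets, 1427504_s_at also had its 3 BL6 arrays lowest, by a smaller margin. It read 11.73, 11.97 and 12.24 in BL6, 12.36, 12.48 and 12.41 in FVB/N and 12.93, 12.83 and 12.83 in SV129, and was 1.84-fold lower in BL6 than in SV129 (−0.88 ± 0.14, adjusted p = 0.0126). Srsf2 1415807_s_at read 10.81, 10.89 and 10.13 in BL6, against 9.98, 10.70 and 10.19 in FVB/N and 10.77, 9.63 and 10.48 in SV129, so that the 2 hypoxic BL6 arrays were the highest of all. Srsf2 1427816_at read 6.65, 5.53 and 6.09 in BL6, overlapping the other strains. The difference between 1452439_s_at and 1427504_s_at itself differed between BL6 and FVB/N by −1.23 ± 0.145 (adjusted p = 0.00149), the only such member pair of 58 (1.65% of all pairs). Between BL6 and SV129 it differed by −0.72 ± 0.145 (adjusted p = 0.0307). In the RefSeq gene table Srsf2 overlaps its neighbour Mfsd11, and which transcripts each probe set matches was not tested.

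**Figure D5:**
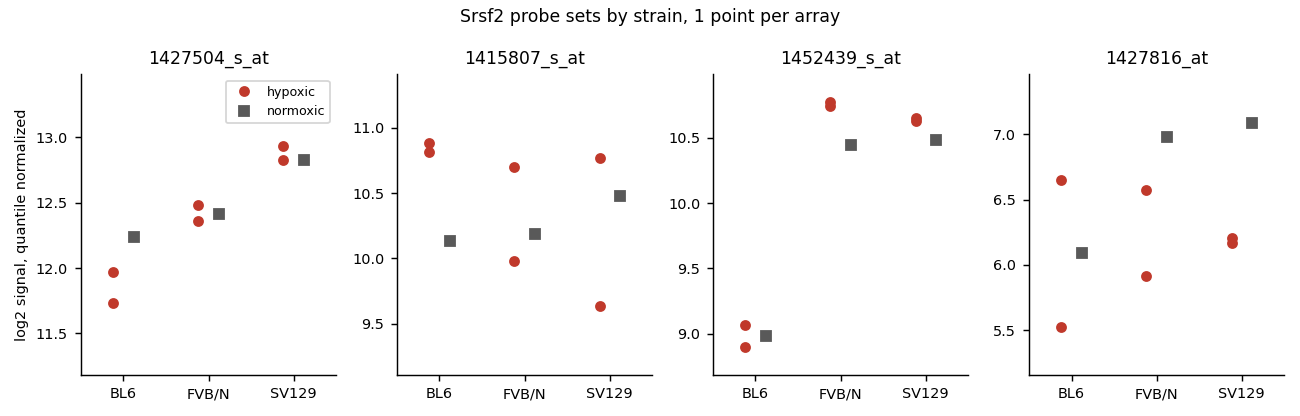
Log2 signal of the 4 Srsf2 probe sets on each array by strain, with red circles for hypoxic and grey squares for normoxic arrays. Each y axis spans the same number of log2 units. In 1452439_s_at the BL6 arrays average 8.98, against 10.65 in FVB/N and 10.59 in SV129, and in 1427504_s_at the BL6 arrays are also the lowest, by less, while the remaining panels overlap.

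The other strain calls concerned single probe sets. Srsf11 1430077_at, from the gene of an SR-related protein, read 6.40, 6.89 and 7.46 in BL6 and 7.67, 8.13 and 8.45 in SV129, without overlap, and was 2.25-fold lower in BL6 (−1.17 ± 0.239, adjusted p = 0.0377). It also differed from Srsf11 1452371_at by −1.01 ± 0.191 between those strains (limma adjusted p = 0.0233). Thus 2 of 58 member pairs passed there (2.07% of all). Deposited signals of Srsf11 1430077_at on the hypoxic BL6 arrays were 70.81 and 95.46, beside array medians of 104.6 and 93.6. Srsf3 1438215_at read 9.59, 9.38 and 9.01 in BL6 and 8.27, 8.55 and 8.29 in SV129, and was 1.94-fold higher in BL6 (0.96 ± 0.205, adjusted p = 0.0471). Hnrnpk 1454692_x_at read 8.63, 8.82 and 8.81 in FVB/N and 9.63, 9.44 and 9.80 in SV129, and was 1.82-fold lower in FVB/N (−0.87 ± 0.173, adjusted p = 0.0324). No pair passed between FVB/N and SV129 by limma (2.16% of all pairs did). At an unadjusted p below 0.05 there were 13 of 58, with no share of all pairs given at that level. These calls depended on single arrays, Srsf11 and Hnrnpk passing in 1 and Srsf3 in 2 of the 9 fits that left out an array. Srsf2 1427504_s_at passed in 6. The BL6 minus SV129 count was 1 or 2 without any 1 of the BL6 or SV129 arrays or the hypoxic FVB/N array 6. The FVB/N minus SV129 count was 0 without any single array other than the normoxic BL6 one. The member pairs between BL6 and SV129 were 0 without any 1 of the 3 BL6 arrays or the normoxic SV129 array. All member strain pairs were lost without both kidney-marked arrays. Shares of all probe sets or pairs in these fits are not given, so the losses cannot be called particular to the members.

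Other splicing genes were read beside the families. Of all probe sets tested, 1.94% rose and 1.82% fell, the shares to hold beside the small counts of these lists. Apart from Syncrip, each gene named from the lists had 1 probe set past the threshold. Any other probe sets tested for it did not pass. Of SR kinase and SR transport genes, 1 of 31 probe sets rose and none fell (median 0.04), the one being Tnpo3, the importin that carries SR proteins into the nucleus (0.60, adjusted p = 0.0456). Of 81 probe sets of SR-related genes, 3 rose and none fell (median 0.04), from Srrm1 (0.74), Srrm2 (0.88) and Rnps1 (0.70). Of 56 probe sets of hnRNP-type proteins with other symbols, 2 rose and 2 fell (median −0.08). Here Syncrip, a relative of Hnrnpr, had calls in both directions, with 1422768_at at −0.80 (adjusted p = 0.0322) and 1422769_at at 0.82 (adjusted p = 0.0334), while Nono rose by 0.58 and Dhx9 fell by 0.54.

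Of 56 probe sets of core spliceosome genes, 3 rose and 2 fell (median 0.06). Sf1 1459766_x_at, from the branch point binding protein, rose 3.77-fold (1.91, adjusted p = 0.0247), while the other 4 tested Sf1 probe sets did not pass. A probe set each of Sf3b3 (0.61) and Sf3b2 (0.52) of the U2 particle also rose, with 1 and 5 others not past the threshold. Snrpe, a ring protein of the small nuclear ribonucleoproteins, fell by 0.73, and Eftud2 of the U5 particle fell by 0.67. None of 48 probe sets of tissue-specific splicing regulators passed (median 0.01), and of 9 probe sets of nonsense-mediated decay genes Smg1 alone rose (0.84, adjusted p = 0.0436, list median −0.01). The lists other than the hnRNP-type one had medians between −0.01 and 0.06, beside 0.04 for the whole table. The hnRNP-type proteins with other symbols leaned down like the members, with 36 of 56 probe sets below 0, and no difference between lists was tested.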

How the data were processed

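Lung RNA was hybridised to one-colour Affymetrix arrays. The deposited values are the authors' linear signal intensity per probe set; their 2% trimmed mean is the same on all arrays, with the software not given in any source used. Of 45101 probe sets, 64 controls were left out, and 34945 had 1 gene symbol, 932 several and 9160 none listed. All 29 member genes matched the RefSeq table by gene ID.

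Signals were taken as log2(signal + 16) and quantile normalized, the dimmest 40% by mean were left out, and 27022 probe sets were fitted with limma 3.58.1 (R 4.3.3; lmFit, eBayes with trend, Benjamini-Hochberg, threshold 0.05). Pressure and strain were additive (5 residual degrees of freedom); a model of 6 groups gave changes per strain and their differences (3 residual). Differences between a probe set and the brightest of its gene were fitted likewise. Alternatives covered scaling, pseudocount, filter, trend, array weights and left-out arrays. Array values were given for probe sets past the threshold in any comparison and for the 10 pairs with the smallest p; where none passed, for the 3 smallest p. Steps were tested on simulated data. The number of arrays limits precision. Members and lists were chosen with earlier results of these data known. No probe sequences were used here.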

Additional observations from a re-analysis of the deposited data

Results flagged for a closer look

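Among 21 probe sets and 10 pairs named above, 2 had a hypoxic array far from the other 5 by Dixon's criterion at the 95% level, which by chance alone marks about 1 group in 20. Both concern Hnrnpd. Hnrnpd 1457568_at read 8.49 on the hypoxic SV129 array 2, with the next hypoxic array at 8.05, a gap of 0.64 of the group's range. It still lay below the lowest normoxic array. The difference between Hnrnpd 1457568_at and 1425142_a_at was −3.27 on the hypoxic SV129 array 5, with the next at −3.06, a gap of 0.665 of the range.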

How the results depend on the processing

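Of 650 alternative values for named probe sets and pairs, 0 reversed, 184 lost the threshold, 4 gained it and 462 did neither. Shares of all probe sets or pairs in the same fit stand in brackets where given. The count of 13 hypoxia calls became 8 with median centring (5.33%), 5 without the filter (1.29%) and 5 without the trend (2.43%). It became 6 without both kidney-marked arrays, not all of them among the 13. In fits chosen after seeing the data, it became 5 without _x_at and 4 without _x_at and _s_at probe sets. Leaving out 1 array gave 0 to 18. The 17 hypoxia pairs became 26 with array weights (20.9%), 3 without the kidney-marked arrays, 10 without _x_at, 6 without _x_at and _s_at (14.3%), 14 with the second brightest Hnrnpab probe set as partner (also chosen after seeing the data; 15.7%), and 27 of 77 against the mean of the other probe sets (14.1%); leaving out 1 array gave 4 to 24. For BL6 minus FVB/N the count of 1 became 7 with array weights, the same share as of all probe sets (8.14%), and 1 to 2 without 1 array. For BL6 minus SV129 the 4 became 2 without the filter, 2 without the kidney-marked arrays, 2 on the 6 hypoxic arrays and 1 with the array number as a replicate block (1 to 6 without 1 array). For FVB/N minus SV129 the 1 became 0 without the kidney-marked arrays, 0 on the hypoxic arrays and 0 with the replicate block (0 to 1 without 1 array). In BL6 alone, leaving out 1 array gave 0 to 2 hypoxia calls. The 2 in FVB/N became 1 with median centring, 1 with the authors' scaling, 1 without the filter and 0 without the trend (0 to 8 without 1 array). Strain pairs of BL6 minus FVB/N became 0 without the kidney-marked arrays. The 2 of BL6 minus SV129 became 1 with median centring, 1 with the authors' scaling, 1 with a stricter filter, 1 without the trend and 0 without the kidney-marked arrays (0 to 3 without 1 array). The causes were not tested. Hypoxia in SV129 and the differences of the change between strains gave 0 under every alternative run. Array numbers did not pair the arrays: deviations of hypoxic arrays sharing a number correlated at −0.03, −0.04 and −0.19, and since all normoxic arrays have number 1, the hypoxia change could not be fitted with the block. With 1 normoxic array per strain, changes within a strain rest on few arrays.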
